A study of Mus musculus with 12 samples.

Results

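The nuclear genes for the subunits of the mitochondrial respiratory chain were followed by complex in im-TEC, a line of conditionally immortalized mouse kidney tubular epithelial cells. Members were the protein-coding genes whose symbols begin with Nduf followed by a, b, c, s or v and a number, Ndufab1, Sdha to Sdhd, and those beginning with Uqcr, with Cox4 to Cox8 and a letter, or with Atp5. They numbered 86 of 55487 genes in the count table, with 38 in complex I, 4 in complex II, 8 in complex III, 18 in complex IV and 18 in complex V. Complexes were assigned by symbol, which puts in complex V *Atp5s*, now named *Dmac2l* and also listed as an assembly factor. The 12 libraries formed 4 groups of 3: TGFβ at 10 ng/mL with the NNMT inhibitor at 50 µM (the combined group), TGFβ alone, the inhibitor alone (NNMTi) at the same dose and control cells, all after 48 h. The inhibitor is 5-amino-1-methylquinolinium, a small molecule directed at nicotinamide N-methyltransferase, the enzyme that methylates nicotinamide. All groups were cells of the same line, which carries an SV40 large T antigen, was kept at 33 °C with interferon gamma and spent 7 days at 37 °C without it before seeding. The labels do not state whether replicates came from separate cultures, and the p-values reflect no more than the variation among these libraries, part of which may be technical.

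Complexes I to IV pass electrons from NADH and succinate to oxygen and, except for complex II, pump protons across the inner mitochondrial membrane, and complex V, the ATP synthase, uses the proton gradient to make ATP. Most subunits are encoded in the nucleus and are assembled with a small core encoded in mitochondrial DNA, complex II being wholly nuclear. Kidney tubule cells, those of the proximal tubule above all, are rich in mitochondria and depend on oxidative phosphorylation for transport.

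The label of tubule epithelium was set against its markers. *Pax8* at 135 to 253 CPM, *Pax2* at 94.5 to 305 CPM and *Cdh16* at 64.7 to 275 CPM were present in all 12 libraries, CPM being a gene's count scaled to a common library total. The epithelial adhesion gene *Epcam* had 0 counts in every library and *Cdh1* stayed at or below 0.355 CPM. Of the 7 proximal tubule markers 2 had too few counts to be tested, *Slc34a1*, the phosphate transporter, with 0 throughout. The water channel *Aqp1* had 7.52 to 35.0 CPM in the 6 libraries with TGFβ and 959 to 1066 CPM in the 6 without it. *Lrp2*, another marker of the list, had 77.1 to 122 CPM across all 12 libraries.

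Of the 86 members, 80 passed the filter on low counts and were tested, 37 in complex I, 4 in II, 8 in III, 14 in IV and 17 in V. *Ndufa4l2* had 36 counts over the 12 libraries and *Cox4i2* 3, while *Cox7b2*, *Cox8b* and *Cox8c*, forms known from other tissues, and a second annotated *Atp5o* locus had 0. The libraries read the 3′ end of each transcript, so CPM does not scale with transcript length and can be set between genes. On that scale the most abundant member was *Atp5g3*, with 1342, 1322 and 1422 CPM in the controls, followed by *Cox6a1* with 667, 674 and 730 CPM. *Atp5g3* encodes the c subunit of the ATP synthase rotor, which is also encoded by *Atp5g1* and *Atp5g2*, and these had 11.9 to 16.1 CPM and 4.02 to 5.69 CPM in the controls. In all, 8 tested members averaged below 10 CPM, among them the muscle forms *Cox6a2* and *Cox7a1*. Levels of 5 members are uncertain because over 50% of the 50-base stretches of their 3′ ends also occur in annotated pseudogenes, namely *Atp5l*, *Cox7c*, *Atp5h*, *Ndufs3* and *Atp5g2*. Some sharing was found for 28 members, these 5 included. Outside these 5 it was highest for *Ndufs5* (47.8%), *Uqcrb* (40.64%), *Cox6c* (34.91%) and *Ndufa12* (27.69%). It was 26.15% for *Atp5g1*, 22.8% for *Atp5o* and 20.07% for *Ndufab1*. In the annotation 38 member symbols overlap another gene, 12 of them on the same strand, the *Atp5o* loci being counted together under their shared symbol. The strand setting of the counting is not given in the sources used here. Among tested members, an opposite-strand gene had more counts than the member at *Ndufb11* (*Rbm10*, 6243 against 5099), *Ndufs1* (*Eef1b2*, 36037 against 6572) and *Ndufs3* (*Kbtbd4*, 1231 against 973).

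The promoters of respiratory chain genes are known for sites of nuclear respiratory factor 1 (NRF1), GABPA (also called NRF2 in this context), YY1 and the oestrogen-related receptor ERRα, through which the nucleus sets the supply of subunits. RefSeq promoters (build GRCm38.p6, from 250 bases before to 50 after the annotated start) were matched for 70 of the 86 members and searched on both strands for the exact letters GCGCATGCG (NRF1), CCGGAAGT (GABPA), AAGATGGCG (YY1) and TCAAGGTCA (ERRα). A match is a description of the sequence and not a site shown to be bound. The second annotated *Atp5o* locus was matched to the same promoter as the first, so the 70 count that sequence at both loci. It held none of these letters. The NRF1 letters stood in 8 of the 70 (11.43%), against 1.95% of 27025 genes with a promoter. The YY1 letters stood in 7 (10.00% against 1.64%), the GABPA letters in 5 (7.14% against 4.31%) and the ERRα letters in 2 (2.86% against 0.47%). All 86 members are protein-coding, while the 27025 genes were not chosen by type, expression or base composition. The 4 promoters below show each of the motifs in a member whose values are given further on, with the matched letters in capitals and the sequence read 5′ to 3′ on the strand of the gene. *Uqcr11* (chr10:80406772-80407071, minus strand) holds the GABPA letters, and the NRF1 letters on its other strand. *Cox8a* (chr19:7217567-7217866, minus strand) holds the GABPA letters at 2 places on its other strand. *Atp5g3* (chr2:73911277-73911576, minus strand) holds the ERRα letters on its other strand, and *Ndufs4* (chr13:114388045-114388344, minus strand) holds the YY1 letters after its start.
Uqcr11: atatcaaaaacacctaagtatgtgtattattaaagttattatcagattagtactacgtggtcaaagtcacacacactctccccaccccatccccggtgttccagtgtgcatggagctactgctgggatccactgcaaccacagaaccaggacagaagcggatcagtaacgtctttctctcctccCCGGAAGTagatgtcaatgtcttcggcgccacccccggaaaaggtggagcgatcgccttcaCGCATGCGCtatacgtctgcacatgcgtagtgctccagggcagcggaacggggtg
Cox8a: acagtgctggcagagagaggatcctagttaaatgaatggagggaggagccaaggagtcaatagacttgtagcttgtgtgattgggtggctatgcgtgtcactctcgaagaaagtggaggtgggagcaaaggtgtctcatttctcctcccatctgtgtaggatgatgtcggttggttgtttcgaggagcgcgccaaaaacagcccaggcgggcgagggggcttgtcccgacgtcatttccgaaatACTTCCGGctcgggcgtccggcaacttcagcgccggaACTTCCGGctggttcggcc
Atp5g3: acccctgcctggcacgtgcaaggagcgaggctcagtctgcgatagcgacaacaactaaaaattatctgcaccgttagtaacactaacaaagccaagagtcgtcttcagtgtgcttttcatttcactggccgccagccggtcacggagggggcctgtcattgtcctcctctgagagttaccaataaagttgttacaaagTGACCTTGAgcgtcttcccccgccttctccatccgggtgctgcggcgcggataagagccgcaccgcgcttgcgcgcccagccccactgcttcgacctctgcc
Ndufs4: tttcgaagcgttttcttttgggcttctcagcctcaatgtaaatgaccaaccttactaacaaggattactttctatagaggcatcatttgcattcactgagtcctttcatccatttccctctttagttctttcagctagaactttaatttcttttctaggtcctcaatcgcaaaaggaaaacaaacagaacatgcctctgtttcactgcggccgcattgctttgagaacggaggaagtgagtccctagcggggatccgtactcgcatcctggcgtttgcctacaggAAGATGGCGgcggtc

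TGFβ alone was set against control to ask how the growth factor changes the subunit transcripts. TGFβ lowered 37 of the 80 tested subunits and raised 0, at an adjusted p below 0.05 in edgeR's quasi-likelihood test over all 13581 genes tested. That is 46.2% of the subunits, against 17.1% of all genes tested called lower and 19.4% called higher. The median log2 fold change of the subunits was -0.33, against 0.02 for all genes tested, and 72 of 80 subunits had a negative value. By complex, 14 of 37 subunits fell in complex I, 3 of 4 in II, 4 of 8 in III, 9 of 14 in IV and 7 of 17 in V, with medians of -0.26, -0.63, -0.50, -0.33 and -0.37. Among subunits averaging at least 10 CPM, 35 of 72 fell (48.6%), against 19.0% of 9168 genes at that level. All 3 TGFβ libraries lay below all 3 controls for 44 of 80 subunits and above them for 1, against 22.4% and 23.0% of all genes. Of the 37 falls, 30 held in each of the 12 fits that left out 1 library. In such bulk samples less RNA per cell and fewer cells of a type cannot be told apart.

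**Figure D1:**
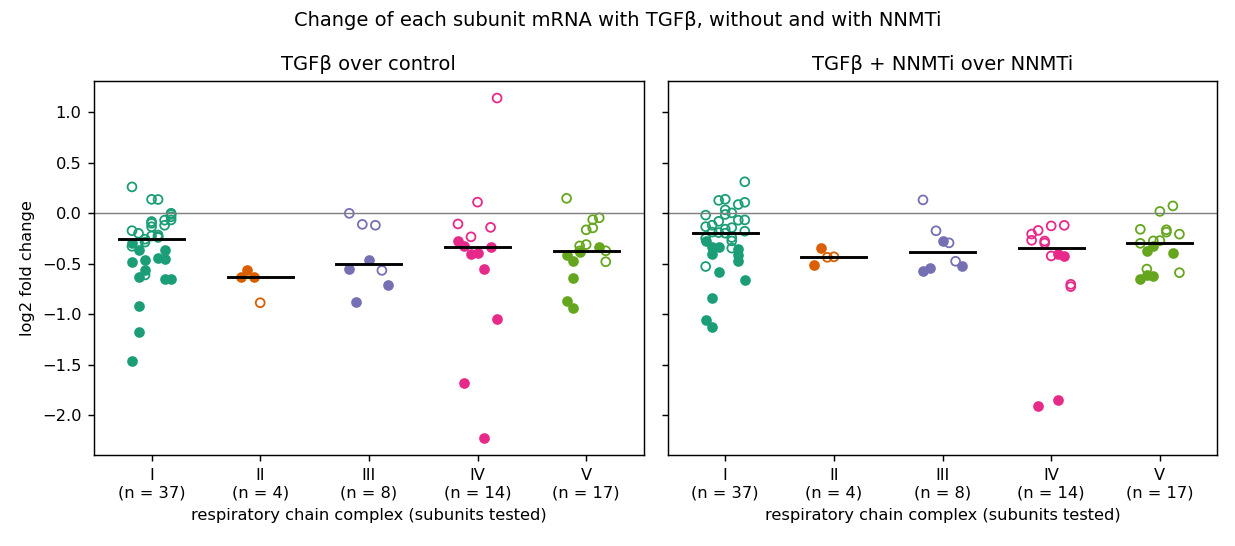
Log2 fold change of each tested subunit mRNA (points) by complex, for TGFβ over control (left) and for the combined group over NNMTi (right). Filled points passed an adjusted p of 0.05, open points did not, and black lines are medians; all filled points lie below 0 in both panels, 37 on the left and 28 on the right.

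Summed over all 86 members, subunit transcripts came to 9796, 10233 and 10892 CPM with TGFβ, against 13730, 13766 and 14342 CPM in the controls. The groups did not overlap, and the ratio of their means was 0.739. The ratio was 0.794 for complex I, 0.643 for II, 0.753 for III, 0.752 for IV and 0.677 for V. The most abundant member, *Atp5g3*, averaged 1362 CPM of the control sum.

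Markers of other cell states moved with TGFβ as well. The 6 fibroblast markers summed to 156 to 195 CPM with TGFβ and 3.93 to 7.92 CPM in the controls, and all 3 that could be tested rose, while the defining fibroblast genes *Pdgfra* and *Lum* had 0 counts in every library. Of the proximal tubule markers, 0 of 5 tested rose and 4 fell, and the list of 7 summed to 145 to 163 CPM with TGFβ and 1250 to 1320 CPM in the controls. Most of the control sum was *Aqp1*, which averaged 25.2 CPM with TGFβ and 1013 CPM in the controls, while *Lrp2* averaged 80.1 and 105 CPM. The tubule list had 2 rises and 2 falls among 6 tested, with sums of 598 to 995 CPM with TGFβ and 795 to 874 CPM in the controls. Endothelial markers summed to at most 0.437 CPM in any library and immune markers to at most 7.97 CPM. Counts outside annotated genes made up 21.8 to 23.5% with TGFβ and 26.3 to 26.8% in the controls. The part of these shifts in the subunit result was not tested.

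In complex I, which oxidizes NADH, the 3 called falls with the smallest adjusted p among subunits of at least 10 CPM were of membrane arm subunits. *Ndufb8* (ENSMUSG00000025204), an accessory subunit of that arm often used as a gauge of assembled complex I, had 145, 156 and 146 CPM with TGFβ, against 315, 345 and 348 CPM in the controls. Every TGFβ library lay at less than 50% of every control library, and the log2 fold change was -1.17 ± 0.09 (SE, adjusted p 1.45e-08), a 2.25-fold fall. *Ndufb8* overlaps another annotated gene on the same strand, Gm20538, which had 0 counts. The overlaps of *Ndufb11* and *Ndufs1* with opposite-strand genes of higher count are given above. *Ndufb6*, another membrane arm subunit, had 61.8, 55.7 and 77.3 CPM with TGFβ, against 100.0, 101 and 98.9 CPM in the controls (-0.65 ± 0.11, adjusted p 0.00021). *Ndufb11*, which sits in the same arm, had 34.3, 40.5 and 35.6 CPM, against 54.2, 55.6 and 61.2 CPM in the controls (-0.63 ± 0.12, adjusted p 0.000525). Neither gene's groups overlapped.

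Across complex I, 5 of 10 Ndufb genes fell, against 6 of 20 tested among the other accessory subunits and 3 of 7 catalytic core subunits. In the core, *Ndufs1*, which carries iron-sulfur clusters of the NADH-oxidizing arm, fell to 55.4, 57.8 and 53.2 CPM with TGFβ, against 76.6, 68.0 and 70.7 CPM in the controls (-0.37 ± 0.10, adjusted p 0.00838). *Ndufv1*, which binds the flavin that accepts electrons from NADH, had a change of 0.00 ± 0.13 and did not pass the test (adjusted p 0.997). For *Ndufv1* the result turned on TGFβ replicate 2, which had 164 CPM beside 108 and 107 CPM in the other TGFβ libraries and 121 to 131 CPM in the controls. Without that library *Ndufv1* fell by 0.25 on the log2 scale (adjusted p 0.0327). *Ndufv3*, a small subunit of the NADH-oxidizing arm, had 51.6, 59.2 and 75.0 CPM with TGFβ, against 106, 118 and 121 CPM in the controls (-0.92 ± 0.20, adjusted p 0.00228), with no overlap. *Ndufa1*, a small membrane subunit needed for assembly, had the largest called fall of complex I, with 41.0, 16.7 and 67.3 CPM with TGFβ, against 116, 104 and 99.9 CPM in the controls (-1.46 ± 0.37, adjusted p 0.0109). The TGFβ libraries lay below all controls but differed among themselves by far more than the controls did, and the value ranged between -1.90 and -1.07 over the fits without 1 library.

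The remaining complex I genes of interest gave values that did not pass the test. *Ndufab1*, the mitochondrial acyl carrier protein, had a change of -0.06 ± 0.14, and *Ndufa9*, at the junction of the arms, of -0.07 ± 0.14 (adjusted p 0.76 and 0.75). *Ndufa4*, named for complex I but now held to be a complex IV subunit, had a change of -0.17 ± 0.14 (adjusted p 0.351), which passed without TGFβ replicate 2 (-0.32, adjusted p 0.0424).

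In complex II, succinate dehydrogenase, 3 of 4 subunits fell, and for all 4 the TGFβ libraries lay below the control libraries. *Sdha* (ENSMUSG00000021577), the flavoprotein that oxidizes succinate, had 123, 117 and 102 CPM with TGFβ, against 185, 174 and 176 CPM in the controls (-0.63 ± 0.10, adjusted p 5.5e-05). *Sdhb*, the iron-sulfur subunit, had 119, 141 and 92.6 CPM, against 163, 183 and 181 CPM in the controls (-0.56 ± 0.13, adjusted p 0.00266). *Sdhc*, a membrane anchor, had 105, 60.8 and 126 CPM, against 145, 148 and 150.5 CPM in the controls (-0.63 ± 0.19, adjusted p 0.016, or -0.39 with adjusted p 0.00376 without TGFβ replicate 2). The spread between TGFβ libraries was wider for the anchor than for *Sdha*. *Sdhd*, the other anchor, had 56.8, 14.1 and 53.2 CPM with TGFβ, against 92.0, 63.6 and 65.2 CPM in the controls, and with this spread did not pass the test (-0.88 ± 0.50, adjusted p 0.206).

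In complex III, which passes electrons from ubiquinol to cytochrome c, the called falls among the members were in small subunits and in 1 core protein. *Uqcr11* (ENSMUSG00000020163), a small subunit whose promoter is printed above, had 41.0, 57.8 and 49.0 CPM with TGFβ, against 83.3, 96.4 and 92.7 CPM in the controls (-0.88 ± 0.12, adjusted p 1.29e-05). *Uqcrh*, the hinge protein next to cytochrome c1, had 214, 241 and 193 CPM, against 340, 348 and 372 CPM in the controls (-0.71 ± 0.10, adjusted p 1.18e-05). In both genes the groups were clearly apart. *Uqcr10* fell by 0.55 ± 0.11 and the core protein *Uqcrc1* by 0.46 ± 0.11 on the log2 scale (adjusted p 0.000542 and 0.00223). *Uqcrq*, a small subunit named for ubiquinone binding, had 235, 277 and 265 CPM with TGFβ and 256, 251 and 270 CPM in the controls, a log2 fold change of 0.00 ± 0.11 (adjusted p 0.999). The Rieske iron-sulfur protein *Uqcrfs1* (-0.56 ± 0.27, adjusted p 0.128) and the core protein *Uqcrc2* (-0.12 ± 0.12, adjusted p 0.463) did not pass. *Uqcrfs1* passed without TGFβ replicate 3 (adjusted p 0.00757).

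In complex IV, cytochrome c oxidase, 7 of the 10 widely expressed subunits fell, along with 2 muscle forms. *Cox7b* (ENSMUSG00000031231) had 89.9, 107 and 119 CPM with TGFβ, against 158, 140 and 160 CPM in the controls (-0.55 ± 0.13, adjusted p 0.00306). *Cox6a1* had 496, 519 and 567 CPM, against 667, 674 and 730 CPM in the controls (-0.39 ± 0.10, adjusted p 0.00337). *Cox5a* had 258, 287 and 284 CPM, against 348, 339 and 352 CPM in the controls (-0.33 ± 0.09, adjusted p 0.00682). These are nuclear subunits that surround the mitochondrially encoded catalytic core, and in each the TGFβ libraries lay below all controls. *Cox8a*, a small subunit, had 234, 120 and 382 CPM with TGFβ, against 499, 456 and 545 CPM in the controls (-1.05 ± 0.34, adjusted p 0.035). The groups did not overlap, yet the call was lost in 7 of the 12 fits without 1 library, with adjusted p of 0.055, 0.0521, 0.0929, 0.0512, 0.0703, 0.0551 and 0.0891 without combined replicates 1 and 2, TGFβ replicate 1, NNMTi replicate 2 and control replicates 1, 2 and 3. *Cox7a2*, the widely expressed form of its subunit, fell by 0.40 ± 0.11 (adjusted p 0.0073, or 0.0508 without control replicate 3).

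The heart and muscle forms were scarce in these cells. *Cox7a1* (ENSMUSG00000074218) had 2.69, 3.28 and 3.06 CPM with TGFβ, against 8.59, 7.51 and 12.7 CPM in the controls, with no overlap (-1.68 ± 0.31, adjusted p 0.000276, a 3.20-fold fall). *Cox6a2* had 0.539, 0.708 and 0.383 CPM, against 4.02, 2.30 and 2.02 CPM in the controls (-2.23 ± 0.62, adjusted p 0.00845, or 0.0506 without control replicate 1). It was read from 151 counts over the 12 libraries. *Cox6b2*, known from testis, had 1.83, 1.42 and 1.15 CPM with TGFβ and 0.446, 0.484 and 1.11 CPM in the controls, the only member above all controls, and did not pass the test (1.14 ± 0.72, adjusted p 0.232). *Cox4i1*, the main regulatory subunit, stood at 478 CPM in TGFβ replicate 2, beside 244 and 216 CPM in the other TGFβ libraries and 343, 316 and 356 CPM in the controls (-0.10 ± 0.23, adjusted p 0.76). Without TGFβ replicate 2 it fell by 0.56 (adjusted p 4.49e-06). *Cox5b* (-0.23 ± 0.18, adjusted p 0.339) and the supercomplex factor *Cox7a2l* (0.11 ± 0.25, adjusted p 0.769) likewise passed without TGFβ replicate 2, with falls of 0.50 (adjusted p 0.00591) and 0.43 (adjusted p 0.00974).

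In complex V, the ATP synthase, 3 of 5 genes of the F1 head and central stalk fell, 2 of 4 tested of the peripheral stalk and 1 of 3 of the c ring. *Atp5b* (ENSMUSG00000025393), the catalytic beta subunit, had 242, 256 and 288 CPM with TGFβ, against 424, 395 and 406 CPM in the controls (-0.64 ± 0.09, adjusted p 2.76e-05). *Atp5a1*, the alpha subunit, had 284, 222 and 377 CPM, against 557, 529 and 519 CPM in the controls (-0.87 ± 0.13, adjusted p 5.51e-05). *Atp5o*, which couples the stalk to the head, had 303, 289 and 296 CPM, against 383, 404 and 443 CPM in the controls (-0.47 ± 0.10, adjusted p 0.0015). None of these groups overlapped. *Atp5g3*, the main c-ring gene and the most abundant member, had 742, 411 and 991 CPM with TGFβ, against 1342, 1322 and 1422 CPM in the controls (-0.94 ± 0.24, adjusted p 0.00864), a 1.91-fold fall. The other c-ring genes *Atp5g1* (-0.48 ± 0.32, adjusted p 0.264) and *Atp5g2* (0.15 ± 0.25, adjusted p 0.68) did not pass, and *Atp5g1* did so without TGFβ replicate 2 (-1.20, adjusted p 0.00112). *Atpif1*, the inhibitor of reverse ATP synthase action, which the symbol pattern does not take in, had a change of -0.24 ± 0.12 that did not pass (adjusted p 0.123), and that did so without TGFβ replicate 3 (0.0166) or with library size alone (0.0475).

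**Figure D2:**
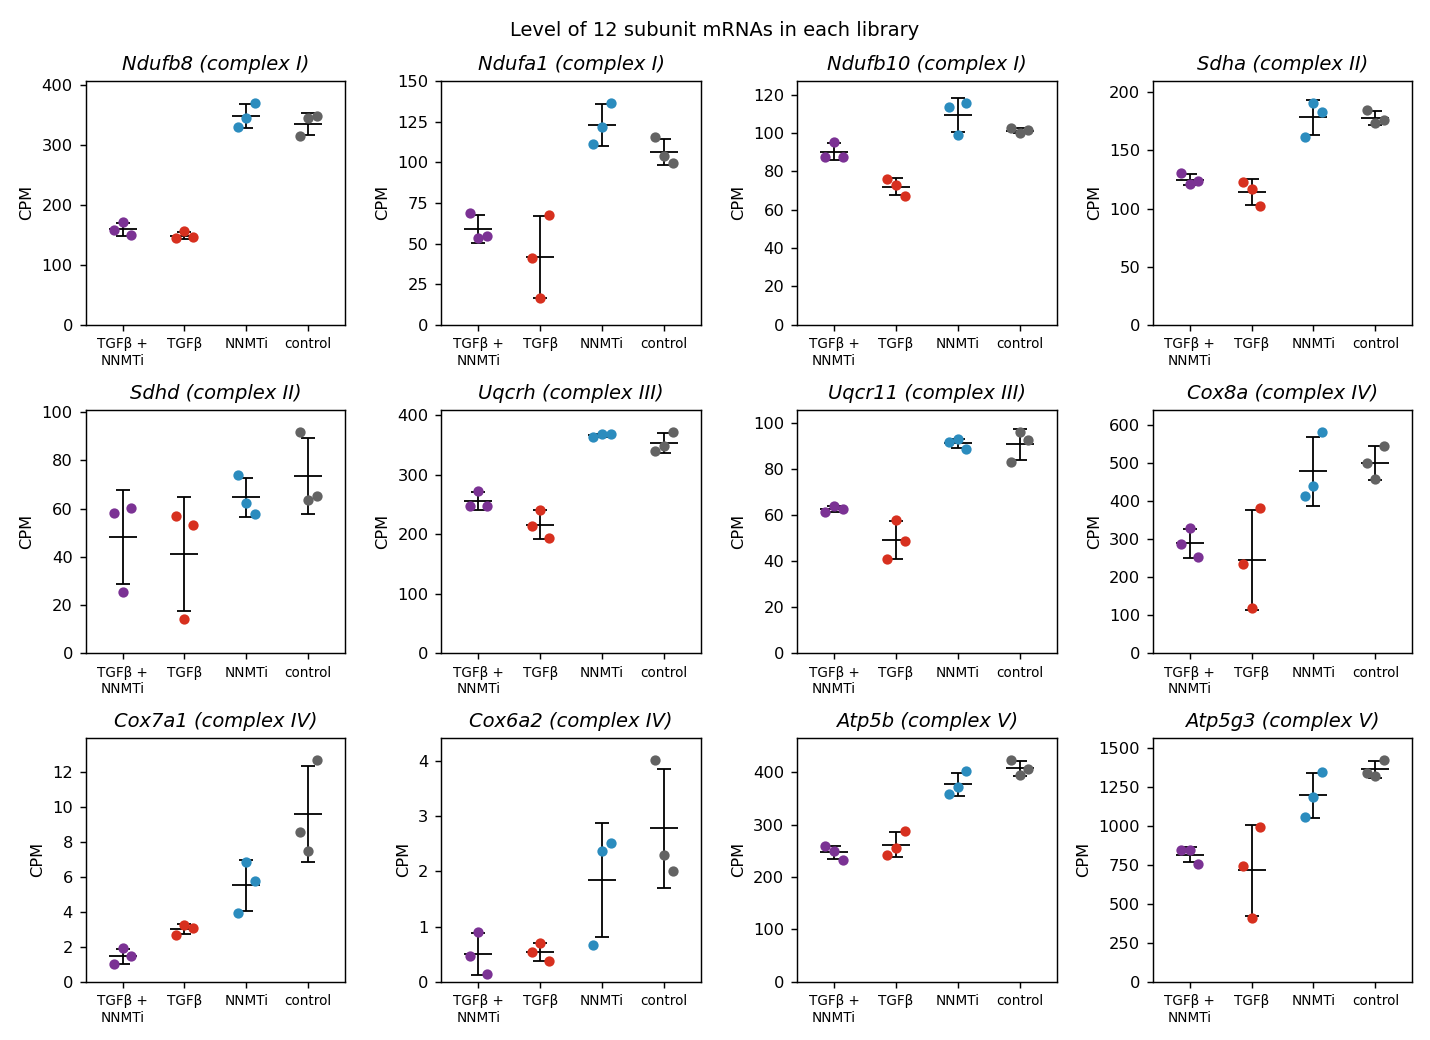
Level in CPM (vertical axis, from 0) of 12 subunit mRNAs in each of the 12 libraries, by group (horizontal axis), with points for libraries, the longer horizontal line for the mean and bars for 1 SD. In Ndufb8, Sdha, Uqcrh, Uqcr11 and Atp5b the libraries of both TGFβ-treated groups lie below those of NNMTi and control, and in Ndufa1, Sdhd, Cox8a and Atp5g3 the TGFβ libraries are widely spread.

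Libraries of the TGFβ group differed among themselves more than those of the other groups. The biological coefficient of variation over all genes, edgeR's estimate of the spread beyond counting error, was 0.227 with TGFβ, 0.112 in the combined group, 0.0884 with NNMTi and 0.0657 in the controls. TGFβ replicate 2 lay more than 0.5 above the other libraries of its group, on the log2(CPM + 1) scale, in 11 subunits and more than 0.5 below them in 10, and TGFβ replicate 3 in 11 and 4. In the controls at most 2 subunits of a library did so. In TGFβ replicate 2 the low subunits included *Sdhd* (-1.89), *Ndufa1* (-1.60), *Atp5j* (-1.42), *Cox8a* (-1.31), *Uqcrfs1* (-1.18) and *Atp5g3* (-1.06), while *Atp5d*, *Cox4i1* and *Cox7a2l* were high. The subunits of 1 complex thus lay on both sides in that library. TGFβ replicate 3 was the shallowest library, with 2584117 counts in genes, and TGFβ replicate 2 the deepest, with 11866903. The deviations of TGFβ replicate 3 are taken from a mean that includes TGFβ replicate 2. Without TGFβ replicate 2, 54 subunits fell, 17 of them not called with it, and 0 rose. The share of all genes called in that fit is not given here. The larger count is therefore not shown to be particular to the subunits.

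**Figure D3:**
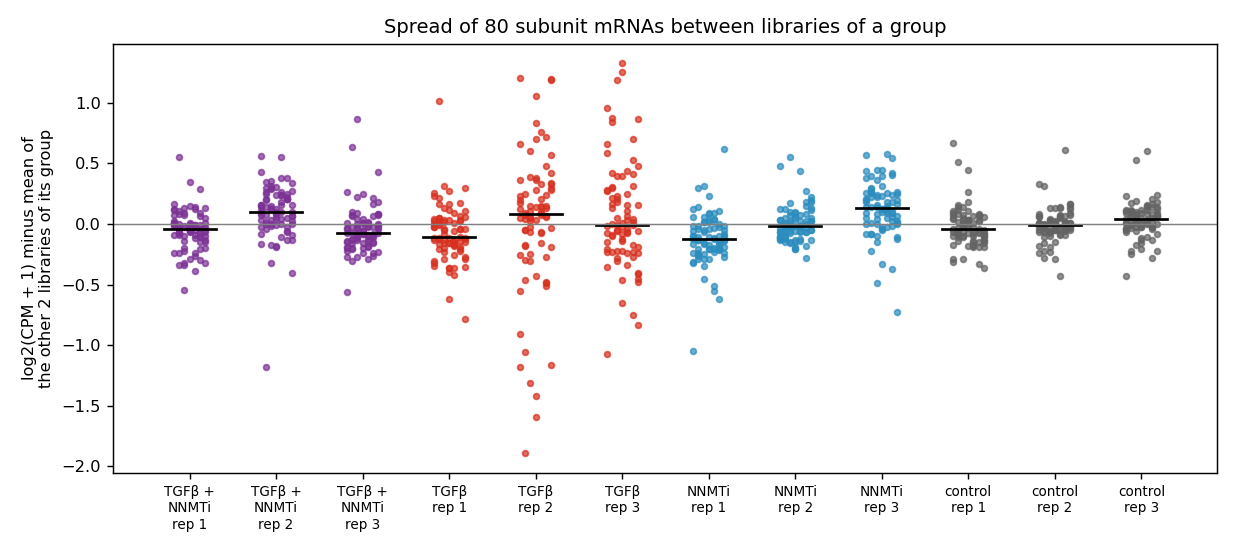
Difference of each library from the mean of the other 2 of its group, on the log2(CPM + 1) scale (vertical axis), for the 80 tested subunits (points), with the median as a line; libraries run along the horizontal axis. TGFβ replicates 2 and 3 have the widest scatter, with 21 and 15 subunits beyond 0.5 in either direction, and the controls the narrowest.

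The combined group was set against NNMTi, a comparison that shares no library with that of TGFβ and control, to see the TGFβ effect in the presence of the inhibitor. TGFβ lowered 28 of the 80 subunits and raised 0 (35.0%, against 18.3% of all genes called lower and 18.0% called higher), with a median of -0.28 against -0.00 for all genes. By complex, 12 of 37 fell in complex I, 2 of 4 in II, 4 of 8 in III, 4 of 14 in IV and 6 of 17 in V, *Atp5s* among these 6. The smaller count than without the inhibitor is no test of a smaller effect, and the difference itself, tested as the interaction, was called for 0 subunits. The fibroblast list summed to 37.4 to 47.3 CPM in the combined group and 3.30 to 5.21 CPM with NNMTi, and its 3 tested genes rose. The proximal tubule list summed to 164 to 179 CPM in the combined group and 1180 to 1240 CPM with NNMTi (1 rise and 3 falls of 5 tested). Within it *Aqp1* averaged 11.5 CPM in the combined group and 995 CPM with NNMTi, and *Lrp2* 119.5 and 86.9 CPM. The tubule list summed to 554 to 587 CPM and 841 to 869 CPM (1 rise and 4 falls of 6). Counts outside genes made up 21.9 to 23.6% in the combined group and 24.8 to 27.4% with NNMTi, and the part of these shifts in the result was not tested.

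*Ndufb8* again had the smallest adjusted p, with 158, 171 and 149 CPM in the combined group, against 330, 346 and 370 CPM with NNMTi (-1.13 ± 0.09, adjusted p 1.63e-08). *Sdha* had 130, 121 and 124 CPM, against 162, 191 and 183 CPM with NNMTi (-0.51 ± 0.10, adjusted p 0.000385). *Uqcr10*, a small complex III subunit, had 126, 160 and 131 CPM, against 184, 209 and 229 CPM with NNMTi (-0.58 ± 0.11, adjusted p 0.000312). In each the combined libraries lay below all NNMTi libraries. *Cox7a1* had 1.04, 1.91 and 1.45 CPM in the combined group, against 3.96, 6.86 and 5.79 CPM with NNMTi (-1.91 ± 0.34, adjusted p 0.000195), and *Atp5b* had 259, 249 and 233 CPM, against 358, 372 and 402 CPM with NNMTi (-0.61 ± 0.09, adjusted p 4.34e-05). *Cox6a2* had 0.463, 0.899 and 0.132 CPM in the combined group, which overlapped the 0.661, 2.37 and 2.51 CPM with NNMTi (-1.85 ± 0.64, adjusted p 0.0292). That call was lost without combined replicate 1 (0.0896) or 3 (0.117) or NNMTi replicate 2 (0.103) or 3 (0.122), and the value was -2.57 without combined replicate 2. Of the 28 falls, 12 held in every fit without 1 library, and the count of falls was 15 without combined replicate 1, 15 without combined replicate 3, 12 without NNMTi replicate 3 and 42 without TGFβ replicate 2. *Ndufab1*, the mitochondrial acyl carrier protein, was called higher without TGFβ replicate 2 (0.33, adjusted p 0.0465) or NNMTi replicate 1 (0.44, adjusted p 0.0413). The combined libraries all lay below NNMTi for 50 subunits and above for 1, against 26.1% and 26.0% of all genes.

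The subunits that fell were largely shared between the 2 TGFβ comparisons. In both, 26 fell, which is 70.3% of the 37 in TGFβ over control and 92.9% of the 28 in the combined group over NNMTi, and 39 fell in either. Across the 80 subunits the log2 fold changes had a Pearson correlation of 0.718 and a Spearman correlation of 0.662, against a Spearman correlation of 0.771 across all genes tested. The points share the 3 libraries of each group, and genes are not independent replicates. In 64 subunits both values were below 0. The overlap of falls was not counted over all genes tested, whose correlation was the higher. It is therefore not shown to be particular to the subunits.

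**Figure D4:**
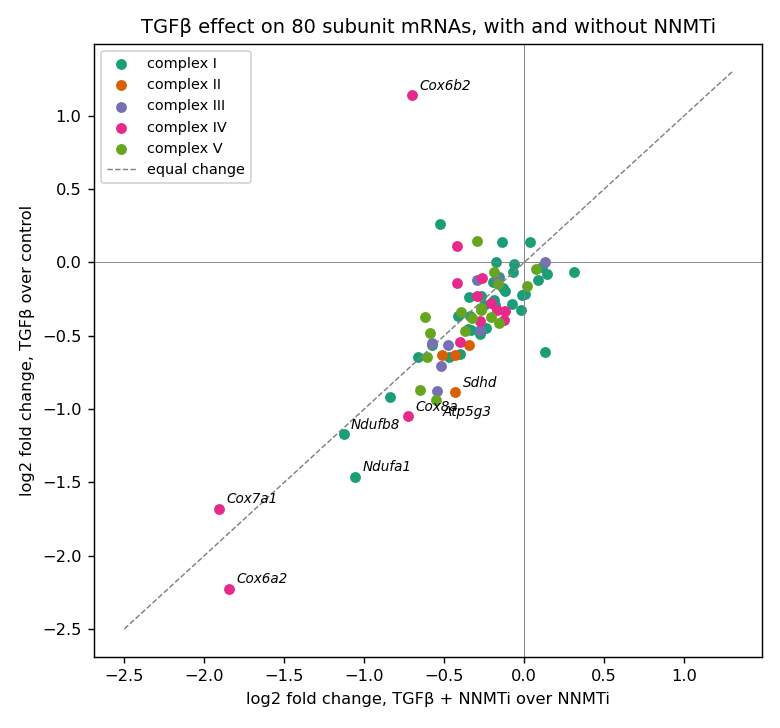
Log2 fold change of the 80 tested subunit mRNAs in the combined group over NNMTi (horizontal axis) and in TGFβ over control (vertical axis), with colour for the complex and a dashed line for equal change. Most points, 64 of 80, lie at the lower left, below 0 on both axes, with Ndufb8, Ndufa1, Cox7a1 and Cox6a2 farthest out.

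The combined group was set against TGFβ alone to see whether the inhibitor changed the subunits in TGFβ-treated cells. In this comparison 1 subunit rose and 0 fell (1.25% and 0.00%), against 3.45% and 6.97% of all genes, and the median was 0.09 against -0.02. The 1 riser was *Ndufb10*, a membrane arm subunit of complex I, with 87.7, 95.5 and 87.7 CPM in the combined group, against 75.8, 73.0 and 67.3 CPM with TGFβ. The groups did not overlap, and the log2 fold change was 0.32 ± 0.10 (adjusted p 0.0469). The call was lost in 8 of the 12 fits without 1 library, with adjusted p of 0.0632, 0.102 and 0.0701 without combined replicates 1, 2 and 3, 0.0503 and 0.0759 without TGFβ replicates 1 and 3, and 0.0657, 0.0708 and 0.0698 without control replicates 1, 2 and 3. *Ndufb10* had 113, 99.0 and 116 CPM with NNMTi and 103, 99.9 and 101 CPM in the controls, so its level in the combined group lay between TGFβ and the groups without TGFβ. The fibroblast markers summed to 37.4 to 47.3 CPM in the combined group and 156 to 195 CPM with TGFβ, whose part in the result was not tested. At an unadjusted p below 0.05 there were 5 higher and 3 lower subunits of 80, against 1344 and 2073 of all 13581 genes tested. The groups did not overlap for 4 higher and 3 lower subunits, against 10.1% and 13.8% of all genes. Without TGFβ replicate 2, 6 subunits rose and 0 fell, among them *Uqcr11* (0.51, adjusted p 0.00305) and *Uqcrh* (0.33, adjusted p 0.00954), and without TGFβ replicate 3, 3 rose. Called falls appeared for *Ndufs3* without TGFβ replicate 1 (-0.82, adjusted p 0.0486) and for *Cox6b2* without combined replicate 3 (-4.72, adjusted p 0.0245).

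The inhibitor alone was set against control. Here 0 subunits were called in edgeR (2.47% of all genes rose and 5.80% fell), and the median was -0.01 against 0.01 for all genes. At an unadjusted p below 0.05 there were 2 higher and 5 lower of 80, against 1281 and 1652 of all 13581 genes tested. DESeq2 called 3 lower, and edgeR itself called 3 lower with library size alone, 2 lower with RLE size factors, and 2 higher and 9 lower with only these groups in the fit. The NNMTi libraries all lay below the controls for 12 subunits and above them for 6, against 18.7% and 17.0% of all genes. Summed subunit transcripts came to 12699, 13231 and 14621 CPM with NNMTi and 13730, 13766 and 14342 CPM in the controls, which overlapped. The smallest unadjusted p was that of *Ndufab1*, the acyl carrier protein, with 30.7, 28.8 and 20.9 CPM with NNMTi and 37.1, 38.6 and 33.4 CPM in the controls (-0.44 ± 0.14, adjusted p 0.0621). *Cox7a1* had 3.96, 6.86 and 5.79 CPM with NNMTi and 8.59, 7.51 and 12.7 CPM in the controls (-0.80 ± 0.28, adjusted p 0.0853). Without TGFβ replicate 2, which enters the spread estimate, 6 subunits were called, 1 higher and 5 lower, *Ndufab1* (adjusted p 0.0163), *Cox7a1* (0.0354) and *Cox5a* (0.00697) among them, and without NNMTi replicate 1, only *Ndufab1* (0.0414).

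The interaction, the effect of the inhibitor in TGFβ-treated cells less its effect without TGFβ, was called for 0 subunits in edgeR and in DESeq2, against 0.641% of all genes higher and 0.471% lower. At an unadjusted p below 0.05 there was 1 of 80, against 1420 of all 13581 genes tested. This was *Ndufs3*, a core subunit of complex I whose level is uncertain because of pseudogenes. The median over the subunits was 0.09. Without TGFβ replicate 2 it was called for *Uqcr11* (0.52, adjusted p 0.0421) and *Atp5d*, the delta subunit of the F1 part (0.55, adjusted p 0.00495).

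Several mitochondrially encoded partners of these subunits were higher with the inhibitor. Of 13 such genes 7 were tested. Among the others *mt-Co3*, *mt-Atp8* and *mt-Nd4l* had 0 counts over the 12 libraries, and *mt-Co2*, *mt-Atp6* and *mt-Nd3* had 3 each. *mt-Nd4* had 2332619, so the table covers the mitochondrial genes unevenly. With NNMTi over control 5 of the 7 rose and 0 fell, against 2.47% and 5.80% of all genes, with a median of 0.65 over the 7. *mt-Co1*, the catalytic subunit of complex IV, had 1672, 1689 and 1805 CPM with NNMTi, against 945, 930 and 993 CPM in the controls (0.85 ± 0.10, adjusted p 1.46e-05). *mt-Nd5*, a proton-pumping subunit of complex I, had 2179, 2154 and 2388 CPM with NNMTi, against 1301, 1335 and 1347 CPM in the controls (0.76 ± 0.12, adjusted p 0.000351). In both the groups were far apart, while 0 nuclear subunits were called in the same comparison; whether the nuclear and mitochondrial sets differ was not tested. In the combined group over TGFβ 4 of the 7 rose and 0 fell, against 3.45% and 6.97% of all genes, with a median of 0.45. With TGFβ over control 1 fell and 0 rose (median -0.25), against 17.1% and 19.4% of all genes. In the combined group over NNMTi 4 fell and 0 rose (median -0.34), against 18.3% and 18.0% of all genes. *mt-Nd5* had 1390, 1556 and 1619 CPM in the combined group, against 1128, 775 and 1033 CPM with TGFβ (0.64 ± 0.12, adjusted p 0.00173).

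**Figure D5:**
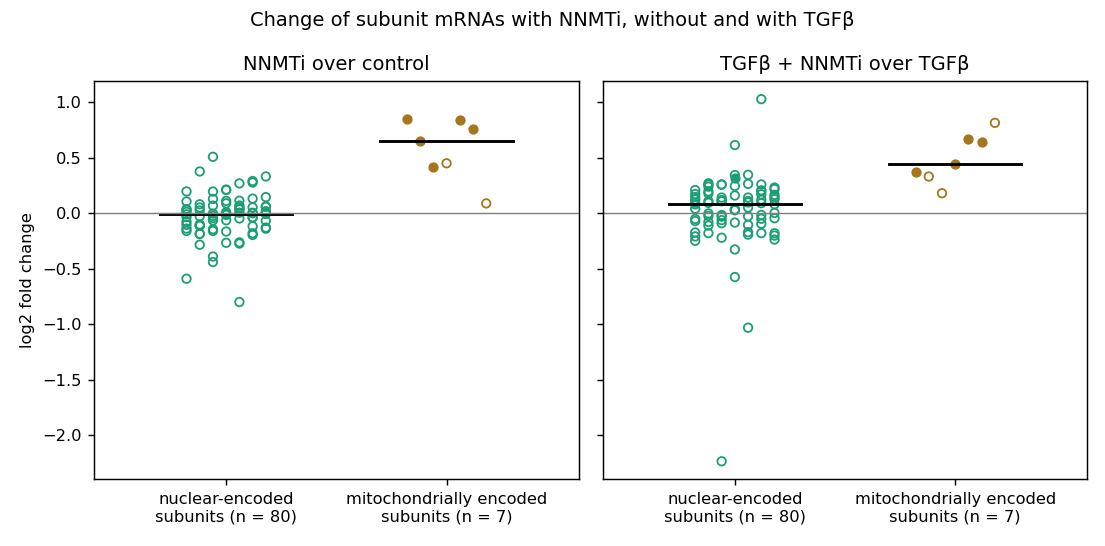
Log2 fold change with NNMTi over control (left) and with the combined group over TGFβ (right) of the 80 nuclear-encoded and the 7 tested mitochondrially encoded subunit mRNAs (points), with filled points past an adjusted p of 0.05 and lines for medians. On the left 0 nuclear and 5 mitochondrial subunits are filled, on the right 1 and 4, and all filled points lie above 0.

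The combined group against control shares the control libraries with the other control comparisons, so its values are given beside theirs and no overlap is drawn. In it 28 of 80 subunits fell and 0 rose (35.0%, against 16.5% and 15.3% of all genes), with a median of -0.29 against 0.03. The combined libraries all lay below the controls for 47 subunits and above them for 2, against 24.9% and 27.0% of all genes. *Cox7a1* fell by 2.71 ± 0.33 on the log2 scale (6.55-fold, adjusted p 2.88e-06), where TGFβ alone gave -1.68 and NNMTi alone -0.80. *Ndufb8* fell by 1.08 ± 0.09 (adjusted p 4.03e-08), *Atp5b* by 0.72 ± 0.09 (7.02e-06), *Atp5a1* by 0.73 ± 0.13 (0.000357), *Uqcr10* by 0.58 ± 0.11 (0.00034) and *Sdha* by 0.51 ± 0.10 (0.000478). Each of these 6 held in all fits without 1 library. *Cox6a2* fell by 2.44 ± 0.61 (adjusted p 0.00472), and by 3.18 without combined replicate 2. *Cox7a1* was lowest in the combined group, at 1.04 to 1.91 CPM, then with TGFβ at 2.69 to 3.28 CPM, with NNMTi at 3.96 to 6.86 CPM and in the controls at 7.51 to 12.7 CPM. Of the neighbours in that order, the combined group and TGFβ (-1.03 ± 0.37, adjusted p 0.0811) and NNMTi and control (adjusted p 0.0853) did not differ past the threshold.

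Genes that serve the chain but lie outside the symbol patterns were counted in TGFβ over control, where 19.4% of all genes rose and 17.1% fell. Of 54 tested assembly factors, 6 rose and 11 fell, with a median of -0.05, so the share that fell was near that of all genes. *Tmem70*, which helps build the ATP synthase, had 134, 113 and 136 CPM with TGFβ, against 67.0, 61.7 and 71.1 CPM in the controls (0.93 ± 0.12, adjusted p 3.93e-06), and *Fmc1*, an assembly factor of the same complex, had 43.7, 24.7 and 31.4 CPM, against 65.6, 81.3 and 78.4 CPM in the controls (-1.17 ± 0.17, adjusted p 2.91e-05). Factors of 1 complex thus moved in opposite directions, while all called subunits of that complex fell. Of 12 genes for the mobile carriers and cytochrome c1, 2 fell and 0 rose, a share of falls also near that of all genes. The 2 were *Cyc1* (-0.56 ± 0.10, adjusted p 0.000192) and *Coq9*, needed to make ubiquinone (-1.08 ± 0.16, adjusted p 2.68e-05). *Cyc1* encodes cytochrome c1, a subunit of complex III that the symbol patterns leave out and the counts by complex do not include.

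Of 12 regulators of these genes, 2 rose and 3 fell with TGFβ over control, beside 19.4% and 17.1% of all genes. The coactivator *Ppargc1a*, which drives mitochondrial gene programmes, fell in both TGFβ comparisons, to 7.29, 13.3 and 11.6 CPM in the combined group, against 189, 195 and 218 CPM with NNMTi (-4.23 ± 0.19, adjusted p 4.81e-11), and to 15.4, 8.94 and 11.9 CPM with TGFβ, against 252, 247 and 270 CPM in the controls (-4.41 ± 0.20, adjusted p 6.4e-11). *Esrra*, which encodes ERRα, had 25.5, 28.8 and 31.8 CPM with TGFβ, against 48.7, 45.0 and 42.5 CPM in the controls (-0.68 ± 0.14, adjusted p 0.000821). *Hif1a*, the oxygen-sensing factor, fell by 0.54 ± 0.14 (adjusted p 0.00573). The related coactivator *Pprc1* rose by 0.89 ± 0.17 (adjusted p 0.000553) and *Gabpa*, a subunit of the factor whose letters are shown above, by 0.48 ± 0.13 (adjusted p 0.00839, or 0.055 without control replicate 2). *Nrf1* mRNA had 45.1, 36.3 and 42.9 CPM with TGFβ and 39.3, 41.6 and 43.2 CPM in the controls.

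Promoter letters were also counted by outcome, as a description with no test. Of the 70 members with a promoter, 31 fell with TGFβ over control and 39 did not pass the test or were not tested. The *Atp5o* promoter stands in both sets, because the second *Atp5o* locus was not tested. The NRF1 letters stood in 5 of the 31 and 3 of the 39, the GABPA letters in 3 and 2, the ERRα letters in 1 and 1, and the YY1 letters in 0 and 7. Any of the 4 stood in 8 of the 31 and 13 of the 39. *Uqcr11*, *Cox8a* and *Atp5g3*, printed above, are among those that fell, and *Ndufs4*, an accessory complex I subunit with the YY1 letters, is not, with 104, 107 and 88.8 CPM with TGFβ and 111, 119 and 115 CPM in the controls (-0.20 ± 0.10, adjusted p 0.125, or 0.0428 without TGFβ replicate 2). The promoter of *Ndufb8* held none of the 4. Where these letters are absent, only their absence from this window is shown.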

How the data were processed

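Mouse im-TEC cells were profiled by 3′ RNA sequencing (QuantSeq 3′ FWD from 100 ng of RNA, per the labels' protocols) in 12 libraries. The deposited table holds raw read counts per Ensembl gene, made by the authors with STAR and HTSeq per the submitters' processing notes, which name the human build GRCh38 although all gene identifiers are mouse; no coordinates were taken from the table. Symbols came from the mouse GENCODE annotation. Rows that name no gene were left out of library sizes and tests; counts outside genes were 21.8 to 27.4% of a library. Counts in genes ranged between 2584117 and 11866903 per library.

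The 4 groups were fitted together with edgeR 4.0.16 (R 4.3.3, limma 3.58.1), using its filter on low counts, TMM scaling and the robust quasi-likelihood F test, with Benjamini-Hochberg adjustment over 13581 genes at 0.05. CPM uses the scaled library sizes, and errors of log2 fold changes are SE. The 12 rows matching the symbol patterns without being protein-coding were left out. Alternatives were DESeq2 1.42.0, other scalings, no filter, only the groups compared, a replicate block, thinning to the shallowest library and leaving out libraries. The fit was tested on simulated counts. Replicate numbers gave no clear sign of pairing, as 1 of 18 same-numbered pairs had a correlation of deviations above 0.1 (range -0.0847 to 0.202). With so few libraries a group, weak correlations cannot exclude pairing. Shared 3′ ends were sought in 50-base steps over the last 300 bases of each transcript.

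Members and gene lists were chosen with earlier results of these data known. Named were, per complex, the 3 called subunits with the smallest adjusted p in TGFβ against control and in the combined group against TGFβ at 10 CPM or more, the 2 largest called changes each way in each comparison, up to 10 called subunits (otherwise the 6 with the smallest adjusted p) in the other comparisons, and a panel of classical subunits. *Ndufs4*, *Ndufv3*, *Uqcrq*, *Cox6b2*, *Atp5d*, *Atp5j*, *Atp5s* and *Ndufs3* were chosen after their values were seen. So were the genes named from the lists of markers, assembly factors, carriers, regulators and mitochondrial genes. Values of some genes of the panel and lists are not reported here.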

Additional observations from a re-analysis of the deposited data

How the results depend on the processing

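The falls with TGFβ against control (37 subunits) numbered between 30 and 47 under the scaling, tool, filter, sample, block and thinning alternatives, and 31 to 54 without 1 library. For the combined group against NNMTi (28), the calls numbered 47 with only the groups compared, 13 after thinning, and 46 (1 of them a rise) without TGFβ replicates 2 and 3 together, with 12 to 43 without 1 library (1 of the 43 a rise, without TGFβ replicate 2). For the combined group against control (28), the counts under those 3 settings were 48, 15 and 44, with 20 to 42 without 1 library. The 1 rise in the combined group against TGFβ became 0 with library size alone, with only the groups compared and after thinning, and 2 without TGFβ replicates 2 and 3, with 0 to 6 without 1 library. For NNMTi against control (0), library size alone gave 3, RLE size factors 2, DESeq2 3, only the groups compared 11, thinning 1 and leaving out TGFβ replicates 2 and 3 gave 8, with 0 to 6 without 1 library. The interaction (0) gave 2 without TGFβ replicates 2 and 3 and 0 to 2 without 1 library; it was not run on the compared groups alone, since it uses all 4. The cause of these differences was not tested, beyond the smaller counts that thinning itself leaves. The share of all genes called under each setting is not given here, so a moved count need not be particular to the subunits.

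With the replicate number as a block, the counts were 38 for TGFβ against control, 26 for the combined group against NNMTi, 0 for the combined group against TGFβ (*Ndufb10*, adjusted p 0.0626), 0 for NNMTi against control, 28 for the combined group against control and 0 for the interaction. The numbers gave no clear sign of pairing the samples.

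Of 1216 recomputed values for 61 named changes, 1105 kept their direction and call, 111 lost the call and 0 reversed. Library size alone moved the median of all genes in the combined group against control to -0.09, against 0.03 with TMM, and that of the subunits to -0.41, against -0.29. In NNMTi against control it put 62 of 80 subunits below 0, against 44 with TMM. Depth limits the scarce genes most: 3 counts stood for 0.253 to 1.16 CPM, near the level of *Cox6a2* with TGFβ.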
